A study of Mus musculus with 6 samples.

Results

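The cholesterol synthesis, SREBP and LXR genes described here were 34 genes, taken by symbol from the 23935 symbols of the deposited tables. They were 5 regulators of SREBP (Srebf1, Srebf2, Scap, Insig1 and Insig2), 7 enzymes of the mevalonate pathway, 11 enzymes that make sterols from farnesyl diphosphate, 3 genes of sterol transport and storage, 2 oxysterol enzymes, the 2 LXR receptors and 4 LXR targets. The samples were bone marrow-derived macrophages (BMDMs), which are macrophages grown from marrow cells in M-CSF, here for 7 days. Over 16 h, all cultures were primed with LPS (10 ng/mL), a bacterial cell wall component, and with IFN-γ (25 ng/mL), and no unprimed library was analysed here. The PKM2FL/FL group (n = 3) carries floxed alleles for pyruvate kinase M2, and the PKM2ΔMAC group (n = 3) carries these alleles together with LysM-Cre, a Cre recombinase in the Lyz2 locus of myeloid cells. Since the control littermates have no Cre, effects of PKM2 loss and of the Cre allele cannot be told apart. The labels number a separate mouse for each library, and the study's methods describe the BMDM donors as male for flow cytometry, while the age and sex of the mice behind these libraries were not given in the sources used here. Total counts were between 49957449 and 54524651 per library.

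Cells sense cholesterol in the endoplasmic reticulum. When it is scarce, SCAP carries the SREBP precursors to the Golgi, where they are cut into transcription factors that switch on the synthesis enzymes, and when it is plentiful INSIG proteins hold SCAP back. When sterols accumulate, oxysterols and late sterol intermediates bind the LXR receptors, which raise cholesterol efflux through ABCA1 and ABCG1. Macrophages take up much lipid, and in these cells both arms are tied to inflammatory activation.

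Pkm, the targeted gene, served to check the labels and had 1714, 1698 and 1705 CPM in the PKM2FL/FL libraries and 987, 1212 and 1005 CPM in the PKM2ΔMAC libraries, with a log2 fold change (PKM2ΔMAC over PKM2FL/FL) of -0.68 (adjusted p = 0.00913, SE 0.077) and an adjusted p of 0.0754 to 0.0993 when a PKM2FL/FL library was left out. Its RNA was lower but present, and least reduced in PKM2ΔMAC replicate 2, and the counts do not separate its isoforms. Lyz2, the lysozyme gene whose locus holds the Cre, had 17825 ± 860.1 CPM over the PKM2FL/FL libraries and 28.4 ± 3.80 CPM over those of PKM2ΔMAC (mean ± SD, n = 3 each). Here CPM are counts scaled to library size with TMM factors, values of single libraries are given in the order of replicates 1 to 3, and adjusted p-values came from edgeR's quasi-likelihood test over the 16516 genes tested. The 7 macrophage markers examined were all expressed, with summed levels of 6745 to 7001 CPM in PKM2FL/FL and 6719 to 7740.0 CPM in PKM2ΔMAC. Of these, edgeR called Itgam, which encodes CD11b, with a log2 fold change of 0.43 (adjusted p = 0.00272, SE 0.040), and Adgre1, which encodes F4/80, had no overlap at 0.26 (adjusted p = 0.236, SE 0.068). Of the 7, 3 had a log2 fold change above 0 and 4 below, with a median of -0.011, and Mertk, Cd68, Cd14 and Csf1r were at -0.16, -0.071, -0.048 and -0.011. The 5 stromal markers summed to 4986 to 5578 CPM in PKM2FL/FL and 4999 to 6285 CPM in PKM2ΔMAC, mostly from collagen genes. Of these, 4 had a log2 fold change above 0, Pdgfrb had no overlap at 0.22 (adjusted p = 0.0719, SE 0.039), and edgeR called 0 (1 at an unadjusted p under 0.05) and DESeq2 1. Over all genes tested, edgeR called 0.412% and 9.83% had an unadjusted p under 0.05, and DESeq2 called 1.38% of those it tested. The 8 neutrophil markers summed to 20.3 to 48.8 CPM in PKM2FL/FL and 90.1 to 170.0 CPM in PKM2ΔMAC. Of these, 8 of 8 had a log2 fold change above 0, against 49.9% of all genes tested. By edgeR 0 were called, against 0.412%, and 5 had an unadjusted p under 0.05, against 9.83%. By DESeq2 4 were called, against 1.38% of the genes it tested. The 5 T and NK cell markers summed to at most 0.618 CPM. In such bulk samples, a change in the number of cells of a type and a change in RNA per cell cannot be told apart. PKM2ΔMAC replicate 2, which also had the highest Pkm of its group, stood apart from the other libraries. The 12 cell cycle genes examined summed to 512 to 525 CPM in PKM2FL/FL and 628 to 858 CPM in PKM2ΔMAC, and in replicate 2 they lay on average 0.85 above the PKM2FL/FL mean on the log2 scale, against 0.28 and 0.23 in replicates 1 and 3. Without that library, the number of genes called at an adjusted p under 0.05 was 299 in place of 68.

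Levels of different genes were compared in TPM, the authors' values scaled to gene length and library size. All 34 genes were expressed, and each was tested. The highest level was that of Nceh1, which frees cholesterol from stored esters, with 259 ± 8.55 TPM in PKM2FL/FL and 251 ± 14.0 TPM in PKM2ΔMAC (SD, n = 3 each). It was followed by Soat1, which makes those esters, with 168 ± 8.71 TPM in PKM2FL/FL and 167 ± 21.3 TPM in PKM2ΔMAC (SD, n = 3 each). The efflux pumps Abca1 and Abcg1 came next, with means over all 6 libraries of 136 and 124 TPM. Srebf2, Cyp27a1 and Nr1h2 followed in the means over all 6 libraries, and their order depended on the genotype. In PKM2FL/FL, Cyp27a1 was above Srebf2 and Nr1h2, at 124 TPM against 112 and 111, and level with Abcg1 at 124 TPM. In PKM2ΔMAC, Cyp27a1 was below Srebf2 and Nr1h2, at 106 TPM against 119 and 112. Abca1 and Abcg1 differed from each other by less than the spread between the PKM2ΔMAC libraries, with an SD of 35.3 TPM for Abca1 and 28.0 TPM for Abcg1. The 4 highest storage and efflux genes stood above the synthesis enzymes, which spanned 2.12 TPM for Fdps to 60.7 TPM for Ebp and for Cyp51. Srebf2, which encodes the SREBP that mainly drives cholesterol synthesis, was above Srebf1, at 71.1 TPM. Nr1h2, which encodes LXRβ, was above Nr1h3, which encodes LXRα, at 43.7 TPM. The lowest levels were those of Fdps, Tm7sf2 with 6.84 TPM and Ch25h with 8.73 TPM. Fdps stood far below the enzymes before and after it in the pathway, Idi1 with 22.5 and Fdft1 with 26.8 TPM. In GENCODE M21, 26.7% of the exon bases of Fdps overlap another gene model, Gm43738, and the handling of such reads in the deposited counts was not given in the sources used here, so its level is uncertain.

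**Figure D1:**
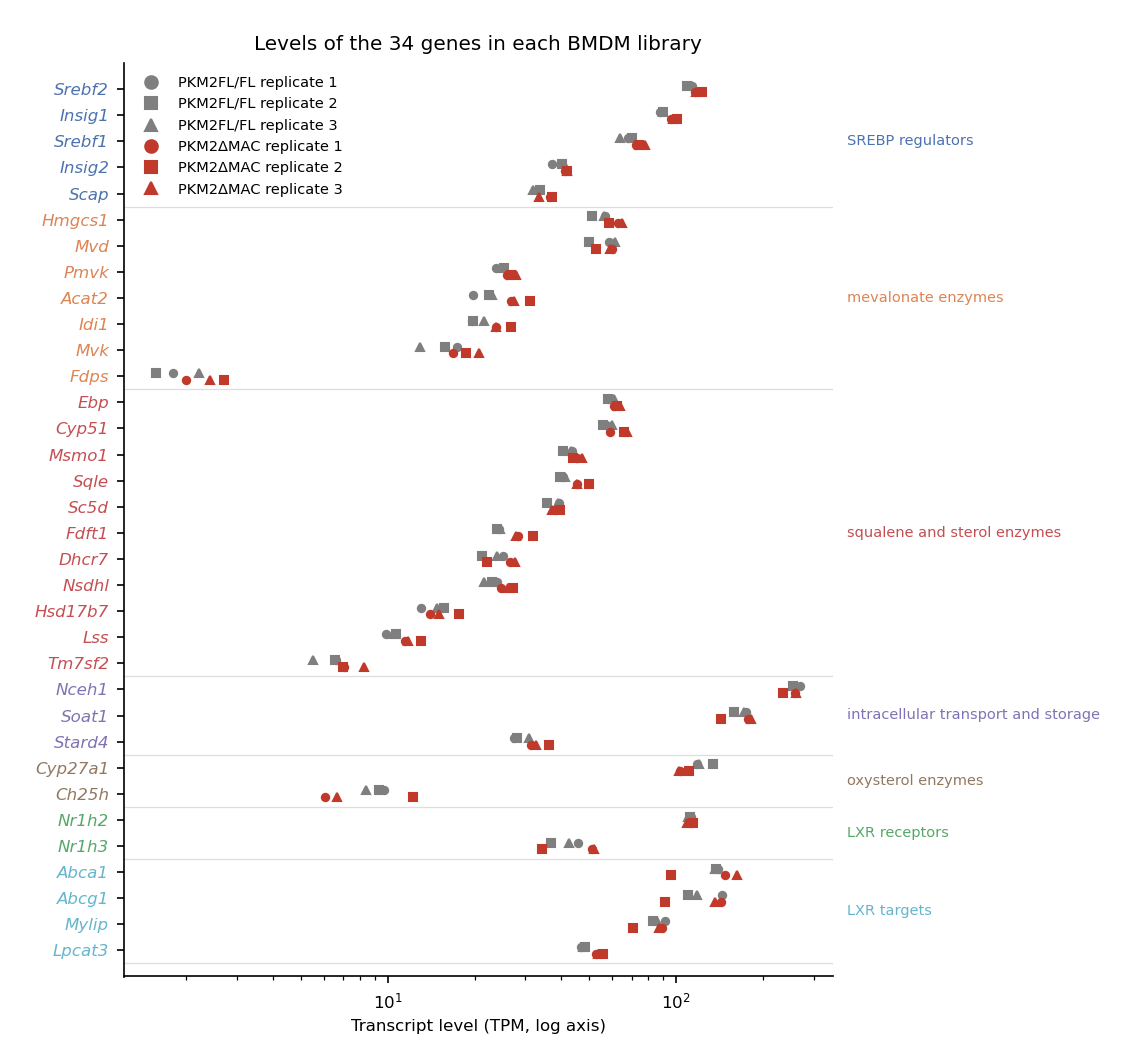
Level of each of the 34 genes in TPM (log axis) in the 6 libraries, 1 point per library, grouped by role. Grey points are PKM2FL/FL and red points PKM2ΔMAC, and the square red points of PKM2ΔMAC replicate 2 lie at the low end for Abca1, Abcg1, Mylip, Nr1h3, Soat1 and Nceh1.

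The comparison of genotypes asks whether loss of PKM2 in primed macrophages changes the RNA of this pathway. The quasi-likelihood test of edgeR called 0 of the 34 genes at an adjusted p of 0.05, against 0.412% of all genes tested. At an unadjusted p under 0.05 there were 8, with 7 higher and 1 lower in PKM2ΔMAC, against 9.83% of all genes tested (5.24% higher and 4.6% lower). DESeq2 called 1 of the 34, Cyp27a1, against 1.38% of the genes it tested (0.91% higher and 0.475% lower), and limma-trend on the TPM values called 0, against 0.281%. The smallest adjusted p, 0.0525, was that of Cyp27a1. The libraries of the genotypes did not overlap for 9 genes, or 26.5%, against 17.2% of all genes tested (8.92% higher and 8.32% lower). Of these, 7 were higher in PKM2ΔMAC (Acat2, Fdft1, Sqle, Idi1, Lss, Lpcat3 and Insig1) and 2 were lower (Cyp27a1 and Nr1h2). An exact two-sided permutation test of each gave p = 0.10, the smallest that 3 libraries against 3 allow. Log2 fold changes of the 34 genes ran from -0.30 for Cyp27a1 to 0.32 for Acat2, with a median of 0.052 against -0.00021 over all genes tested, and 24 of 34 were above 0, against 49.9% of all genes tested. The differences were small and fairly well bounded. For 28 of the 34, the 95% interval of the log2 fold change lay between -0.5 and 0.5, and the widest were those of Abcg1 (-0.66 to 0.51) and Abca1 (-0.67 to 0.50).

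**Figure D2:**
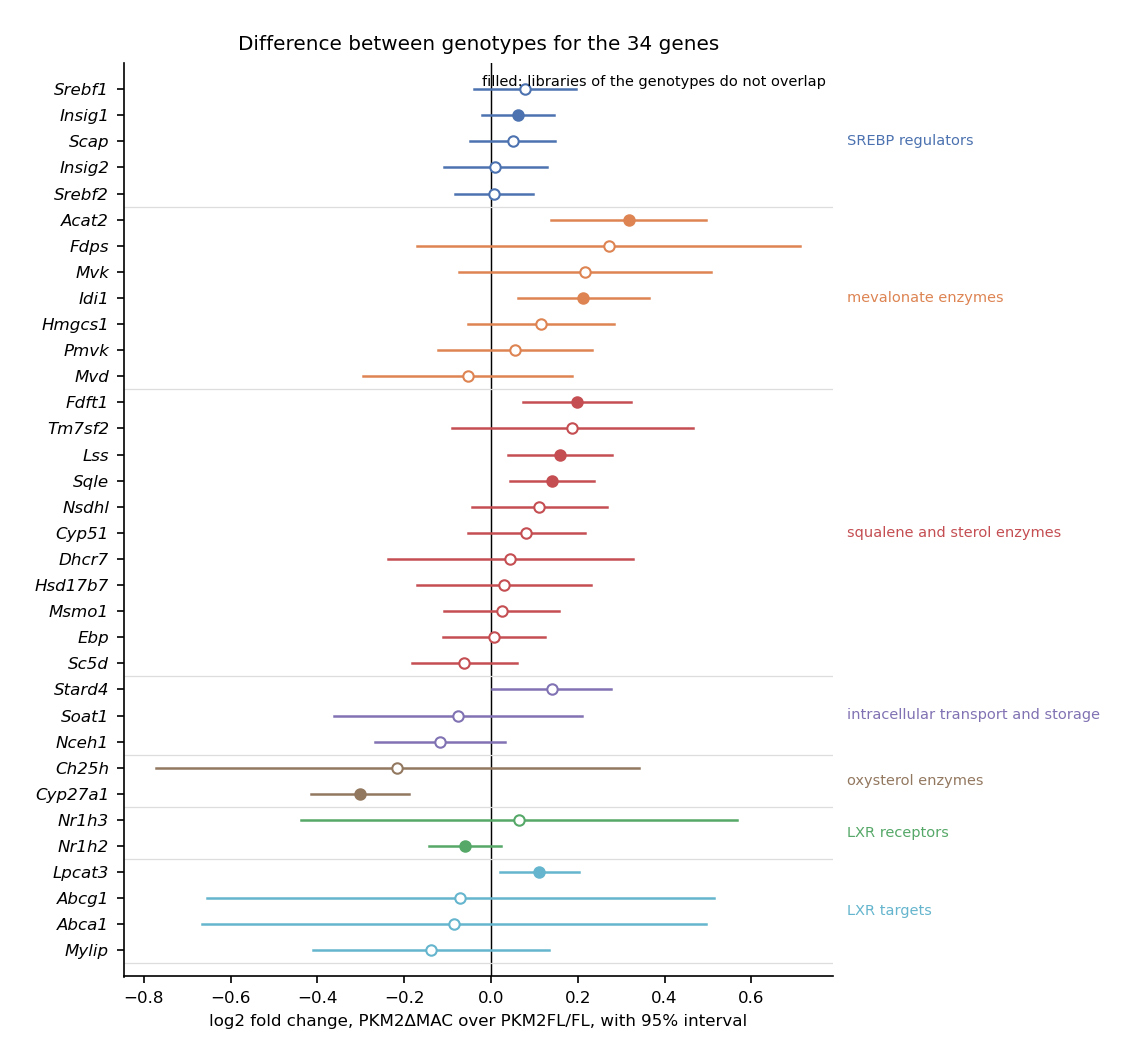
Log2 fold change of each gene (PKM2ΔMAC over PKM2FL/FL, n = 3 each) with its 95% interval from edgeR's fit, by role. Filled points are the 9 genes whose libraries do not overlap, and intervals of the LXR targets Abca1 and Abcg1 are the widest.

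The 5 SREBP regulators differed little between genotypes. Their log2 fold changes ran from 0.0071 (Srebf2) to 0.079 (Srebf1), with a median of 0.050, and adjusted p was at least 0.628. At an unadjusted p under 0.05 there were 0, against 9.83% of all genes tested, and DESeq2 called 0. Srebf2 had 236, 221 and 234 CPM in the PKM2FL/FL libraries and 230.0, 231 and 233 CPM in the PKM2ΔMAC libraries. Its groups overlapped, and the 95% interval of its log2 fold change, -0.083 to 0.098, was among the narrowest of the list. Srebf1, which encodes SREBP-1 and is itself an LXR target, had 111, 111 and 103 CPM in the PKM2FL/FL libraries and 112, 109 and 122 CPM in the PKM2ΔMAC libraries. These also overlapped, with a log2 fold change of 0.079 (adjusted p = 0.673, SE 0.052). Insig1, whose transcription follows SREBP activity, was the 1 regulator without overlap, with 78.1, 78.4 and 79.9 CPM in the PKM2FL/FL libraries and 81.6, 81.5 and 83.7 CPM in the PKM2ΔMAC libraries. The gap was narrow, and its log2 fold change of 0.062 (adjusted p = 0.628, SE 0.036) did not pass the test. Scap had 67.9 to 70.6 CPM in PKM2FL/FL and 69.2 to 74.8 CPM in PKM2ΔMAC, and Insig2, the INSIG gene less tied to SREBP, had 37.0 to 40.6 CPM in PKM2FL/FL and 38.0 to 40.3 CPM in PKM2ΔMAC, with log2 fold changes of 0.050 and 0.010.

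The mevalonate enzymes build isoprenoid units from acetyl-CoA. Of the 7 examined, 6 had a log2 fold change above 0 and 1 below, with a median of 0.21, and 0 were called by edgeR or DESeq2. At an unadjusted p under 0.05 there were 2, Acat2 and Idi1, both higher, against 9.83% of all genes tested (5.24% higher and 4.6% lower). Acat2, a thiolase that joins acetyl-CoA units ahead of mevalonate, had 14.5, 16.0 and 16.8 CPM in the PKM2FL/FL libraries and 18.8, 20.7 and 19.4 CPM in the PKM2ΔMAC libraries. Each PKM2ΔMAC library was above each PKM2FL/FL library. The log2 fold change was 0.32 (adjusted p = 0.220, SE 0.078), the largest of the 34, with a 95% interval of 0.14 to 0.50. Of its distinct 50-base stretches in GENCODE M21 transcripts, 39.1% occur in other genes as well, mainly in its neighbour Acat3, which had at most 0.320 CPM. Idi1, the isomerase that gives dimethylallyl diphosphate, had 19.8, 19.5 and 21.6 CPM in the PKM2FL/FL libraries and 22.9, 24.6 and 23.2 CPM in the PKM2ΔMAC libraries. It did not overlap either, with a log2 fold change of 0.21 (adjusted p = 0.344, SE 0.066), and it shares 25.3% of its 50-base stretches with other models, mainly Gm13502, so that its counts are less certain.

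Hmgcs1, the synthase that opens the pathway, had 74.8, 65.9 and 73.9 CPM in the PKM2FL/FL libraries and 79.8, 70.1 and 82.6 CPM in the PKM2ΔMAC libraries. The groups overlapped, and the log2 fold change was 0.12 (adjusted p = 0.665, SE 0.073). Mvd, a decarboxylase, had 31.3, 26.0 and 32.8 CPM in the PKM2FL/FL libraries and 30.7, 25.6 and 30.5 CPM in the PKM2ΔMAC libraries. Its groups overlapped and its log2 fold change was -0.054 (adjusted p = 0.914, SE 0.10), the only one below 0 in the group. Mvk, which adds the first phosphate to mevalonate, had 9.90 to 13.4 CPM in PKM2FL/FL and 12.4 to 15.4 CPM in PKM2ΔMAC and a log2 fold change of 0.22. Pmvk, which adds the next phosphate, had 11.7 to 12.2 CPM in PKM2FL/FL and 12.0 to 13.3 CPM in PKM2ΔMAC and 0.055. Fdps, which makes farnesyl diphosphate, had 1.87 to 2.68 CPM in PKM2FL/FL and 2.32 to 2.99 CPM in PKM2ΔMAC and a log2 fold change of 0.27 with a 95% interval of -0.17 to 0.71 on only 97 to 164 counts per library.

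Promoters of 3 of these enzymes are shown because they carry the letters that SREBP and its partner NF-Y are known to bind, and because Acat2 and Idi1 were among the genes without overlap. The windows are RefSeq sequences on GRCm38.p6, from 250 bases before to 50 after a transcript start, and capitals mark matches to CACCCCAC, an SRE core, or to CCAAT, on either strand. They lie at chr17:12960676-12960975, minus strand (Acat2), chr13:119690101-119690400, plus strand (Hmgcs1) and chr13:8885356-8885655, plus strand (Idi1).
Acat2: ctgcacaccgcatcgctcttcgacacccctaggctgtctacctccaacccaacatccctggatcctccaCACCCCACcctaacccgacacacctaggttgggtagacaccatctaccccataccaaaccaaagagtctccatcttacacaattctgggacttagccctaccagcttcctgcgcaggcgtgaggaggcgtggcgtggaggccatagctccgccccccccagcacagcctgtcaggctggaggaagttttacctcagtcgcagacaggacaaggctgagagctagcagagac
Hmgcs1: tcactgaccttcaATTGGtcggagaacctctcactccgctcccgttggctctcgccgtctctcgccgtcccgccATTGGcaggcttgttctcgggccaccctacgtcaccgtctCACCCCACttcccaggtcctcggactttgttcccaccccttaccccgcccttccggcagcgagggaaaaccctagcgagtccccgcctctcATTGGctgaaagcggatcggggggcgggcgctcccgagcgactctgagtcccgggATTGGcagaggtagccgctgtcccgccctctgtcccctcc
Idi1: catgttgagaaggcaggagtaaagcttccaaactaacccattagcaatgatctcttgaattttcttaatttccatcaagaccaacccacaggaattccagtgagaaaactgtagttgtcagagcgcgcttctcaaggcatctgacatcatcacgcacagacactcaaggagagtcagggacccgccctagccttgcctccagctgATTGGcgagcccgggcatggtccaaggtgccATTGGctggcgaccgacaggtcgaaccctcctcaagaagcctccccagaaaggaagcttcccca
The SRE core begins 181 bases before the start of Acat2 and 136 bases before that of Hmgcs1, and Hmgcs1 also holds 4 CCAAT matches. Idi1 holds 2 CCAAT matches and no CACCCCAC.

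The enzymes that turn farnesyl diphosphate into squalene and then cholesterol differed little between genotypes as well. Of 11, 10 had a log2 fold change above 0, with a median of 0.082, and edgeR and DESeq2 each called 0. At an unadjusted p under 0.05 there were 3, all higher, against 9.83% of all genes tested (5.24% higher and 4.6% lower). They were Fdft1, Sqle and Lss, which act one after the other to make squalene, its epoxide and lanosterol. Fdft1 had 28.9, 27.7 and 29.0 CPM in the PKM2FL/FL libraries and 32.2, 34.4 and 31.7 CPM in the PKM2ΔMAC libraries. Its groups did not overlap, and the log2 fold change was 0.20 (adjusted p = 0.266, SE 0.055). In GENCODE M21, 18.3% of its exon bases overlap models of Ctsb, a highly expressed lysosomal protease gene. Sqle, the epoxidase and a control point of the pathway, had 64.5, 61.7 and 65.5 CPM in the PKM2FL/FL libraries and 69.1, 72.6 and 69.5 CPM in the PKM2ΔMAC libraries. Its log2 fold change was 0.14 (adjusted p = 0.332, SE 0.042). Lss, the cyclase, had 30.8, 32.5 and 32.2 CPM in the PKM2FL/FL libraries and 34.2, 37.0 and 35.3 CPM in the PKM2ΔMAC libraries. The difference was 0.16 (adjusted p = 0.378, SE 0.052) on the log2 scale. For each of these 3 genes the highest library was PKM2ΔMAC replicate 2, the library with the highest cell cycle genes, whose part in these values was not tested.

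Without PKM2ΔMAC replicate 2, the log2 fold changes were 0.16 for Fdft1, 0.12 for Sqle and 0.13 for Lss, and for Acat2 and Idi1 they were 0.28 and 0.18, with adjusted p from 0.147 to 0.356. Ebp, the sterol isomerase, had 38.8, 37.8 and 40.4 CPM in the PKM2FL/FL libraries and 38.9, 37.7 and 40.9 CPM in the PKM2ΔMAC libraries. Its libraries overlapped almost fully, with a log2 fold change of 0.0067 (adjusted p = 0.981, SE 0.051) and a 95% interval of -0.11 to 0.12. Cyp51, the demethylase of lanosterol, had 69.2 to 75.8 CPM in PKM2FL/FL and 71.6 to 82.4 CPM in PKM2ΔMAC and a log2 fold change of 0.082. The enzymes Msmo1, Nsdhl and Hsd17b7, which strip further methyl groups from the ring, had log2 fold changes of 0.025, 0.11 and 0.030. Their levels were 70.2 to 76.8 CPM in PKM2FL/FL and 70.5 to 80.1 CPM in PKM2ΔMAC for Msmo1, 17.6 to 19.7 CPM in PKM2FL/FL and 19.4 to 20.6 CPM in PKM2ΔMAC for Nsdhl and 19.3 to 22.5 CPM in PKM2FL/FL and 19.7 to 23.6 CPM in PKM2ΔMAC for Hsd17b7, all with overlap. Tm7sf2, a sterol reductase, had 6.95 to 8.39 CPM in PKM2FL/FL and 8.10 to 10.1 CPM in PKM2ΔMAC and a log2 fold change of 0.19. Sc5d, a desaturase with 49.0 to 55.1 CPM in PKM2FL/FL and 50.3 to 51.1 CPM in PKM2ΔMAC, was the 1 enzyme of this group below 0, at -0.061. Dhcr7, the reductase of the final step, had 42.0, 34.8 and 40.1 CPM in the PKM2FL/FL libraries and 42.5, 33.6 and 44.5 CPM in the PKM2ΔMAC libraries. The groups overlapped, the lowest library of each lay well below the others, and the log2 fold change was 0.045 (adjusted p = 0.942, SE 0.12).

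Over the 18 enzymes of both groups, the mean log2 ratio to PKM2FL/FL was 0.077, 0.094 and 0.17 in PKM2ΔMAC replicates 1 to 3 and 0.021, -0.050 and 0.029 in PKM2FL/FL. Each PKM2ΔMAC mean was above each PKM2FL/FL mean. The same held for the means of the SREBP regulators and of the macrophage, neutrophil and cell cycle genes examined, so it was not particular to the enzymes. It did not hold for the LXR receptors, the LXR targets, the transport and storage genes or the stromal markers. Replicate 3 had the highest enzyme mean and the lowest cell cycle mean of the PKM2ΔMAC libraries. Replicate 2, with the highest cell cycle mean, was the highest library for Acat2, Idi1, Fdft1, Sqle and Lss. The part of the cell cycle genes in the enzyme values was not tested. Without replicate 3, the median log2 fold change was 0.12 for the mevalonate enzymes and 0.034 for the enzymes after them. The 18 enzymes summed to 624, 585 and 630 CPM in the PKM2FL/FL libraries and 643, 634 and 674 CPM in the PKM2ΔMAC libraries. In TPM the sums were further apart, at 534 ± 16.0 TPM in PKM2FL/FL and 593 ± 12.7 TPM in PKM2ΔMAC (SD, n = 3 each). Over all genes with a mean TPM of at least 1, the median log2 difference in TPM was 0.063. Lyz2 alone had 47420 ± 2411 TPM in PKM2FL/FL and 79.4 ± 8.60 TPM in PKM2ΔMAC, and its part in this shift was not tested. The promoter of Lss stands for the enzymes that make sterols. All 9 of these with a window held CCAAT in at least 1 of their windows, against 41.1% of all genes with a window. The Lss window lies at chr10:76531355-76531654, plus strand, with its single CCAAT match in capitals.
Lss: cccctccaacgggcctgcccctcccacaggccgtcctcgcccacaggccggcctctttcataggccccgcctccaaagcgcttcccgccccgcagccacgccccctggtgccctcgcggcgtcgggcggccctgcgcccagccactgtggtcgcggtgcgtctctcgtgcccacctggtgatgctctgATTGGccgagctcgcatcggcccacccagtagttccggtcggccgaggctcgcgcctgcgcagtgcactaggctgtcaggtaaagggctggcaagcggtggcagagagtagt

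**Figure D3:**
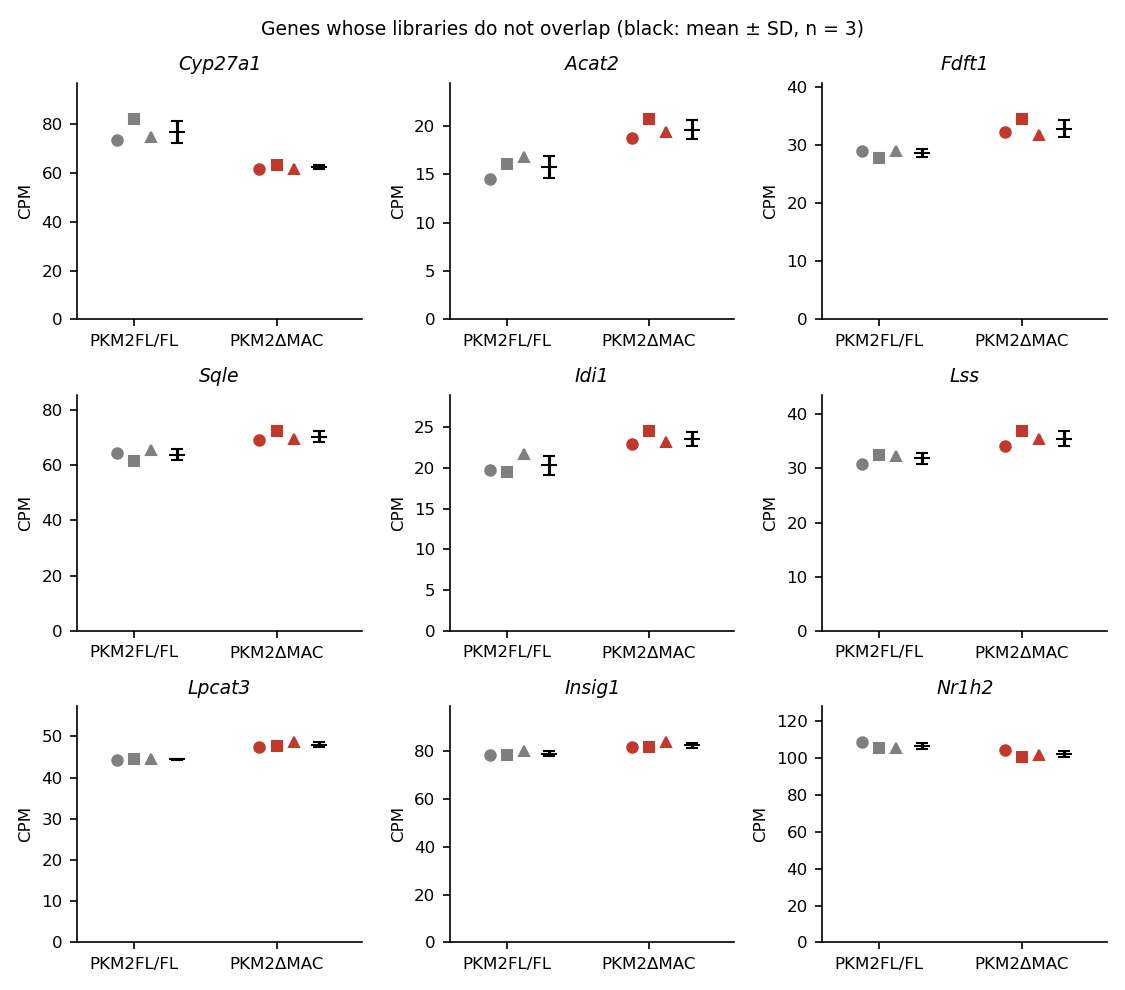
TMM-scaled CPM of the 9 genes whose libraries do not overlap between genotypes, from a zero baseline. Points are libraries, and black bars give the mean ± SD (n = 3). Cyp27a1 and Nr1h2 are lower in the PKM2ΔMAC libraries, and the other 7 genes are higher.

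Of the 3 genes of sterol movement and storage, 1 had a log2 fold change above 0 and 2 below, and edgeR called 0. Stard4, which carries cholesterol between membranes and is a known SREBP target, had 44.1, 44.1 and 49.5 CPM in the PKM2FL/FL libraries and 48.1, 52.9 and 50.6 CPM in the PKM2ΔMAC libraries. The groups overlapped only between the highest PKM2FL/FL library and the lowest PKM2ΔMAC library, and the log2 fold change was 0.14 (adjusted p = 0.503, SE 0.060). Stard4 was the 1 gene of these 3 with an unadjusted p under 0.05, against 9.83% of all genes tested (DESeq2 called 0). Nceh1 had 407, 376 and 384 CPM in the PKM2FL/FL libraries and 374, 323 and 378 CPM in the PKM2ΔMAC libraries, with a log2 fold change of -0.12 (adjusted p = 0.613, SE 0.066). Soat1 had 494, 437 and 482 CPM in the PKM2FL/FL libraries and 479, 367 and 495 CPM in the PKM2ΔMAC libraries, with -0.076 (adjusted p = 0.886, SE 0.12). In both, PKM2ΔMAC replicate 2 was the lowest of all 6 libraries. Without it, the log2 fold change was -0.046 for Nceh1 and 0.049 for Soat1, with adjusted p of 0.720 and 0.762.

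Cyp27a1, the mitochondrial hydroxylase of the cholesterol side chain whose product is an LXR ligand, had the smallest p of the 34 genes. It lies on chromosome 1 of GRCm38 from 74713574 to 74737892, plus strand. It had 73.7, 82.1 and 74.6 CPM in the PKM2FL/FL libraries and 61.9, 63.2 and 61.8 CPM in the PKM2ΔMAC libraries. The PKM2ΔMAC libraries lay close together, and all were below the lowest PKM2FL/FL library. The mean was 81.1% of that in PKM2FL/FL, with a log2 fold change of -0.30 (adjusted p = 0.0525, SE 0.050) and a 95% interval of -0.41 to -0.19. The adjusted p thus missed the threshold of 0.05 by little. It was 0.00130 with DESeq2, 0.0133 without PKM2ΔMAC replicate 2 and between 0.00130 and 0.339 over the 15 alternatives, and the log2 fold change was between -0.33 and -0.23. Cyp27a1 passed the threshold in 4 of the 15 alternatives, among them the replicate block. No other GENCODE M21 exon overlaps its exons, and none of its 50-base stretches occurs in another gene. Its promoter, given as that of the gene with the smallest p, lies at chr1:74713285-74713584, plus strand, with 2 CCAAT matches in capitals.
Cyp27a1: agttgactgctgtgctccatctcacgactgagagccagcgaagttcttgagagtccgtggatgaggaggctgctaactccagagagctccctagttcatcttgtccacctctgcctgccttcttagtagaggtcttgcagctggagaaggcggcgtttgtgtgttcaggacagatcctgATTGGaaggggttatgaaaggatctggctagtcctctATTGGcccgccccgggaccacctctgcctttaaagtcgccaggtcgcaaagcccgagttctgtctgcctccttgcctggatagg

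Ch25h, the other oxysterol enzyme, is induced by interferon and LPS in macrophages. Here it was low, with 3.88, 3.64 and 3.35 CPM in the PKM2FL/FL libraries and 2.32, 4.44 and 2.58 CPM in the PKM2ΔMAC libraries. PKM2ΔMAC replicate 2 was the highest and the other PKM2ΔMAC libraries were the lowest of the 6. The log2 fold change was -0.22 (adjusted p = 0.831, SE 0.24) with all libraries and -0.56 (SE 0.17, adjusted p = 0.158) without replicate 2. It ranged from -0.56 to -0.042 when single libraries were left out. The 9 type I interferon response genes also varied among the PKM2ΔMAC libraries, with mean log2 ratios of 0.31, 0.55 and -0.71 in replicates 1 to 3 and 0.055, 0.11 and -0.16 in PKM2FL/FL. These values were highest in replicate 2 and lowest in replicate 3 of PKM2ΔMAC, and Ch25h was highest in replicate 2 and lowest in replicate 1. The part of the interferon response genes in the Ch25h result was not tested.

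For 4 of the 6 LXR receptor and target genes, Abca1, Abcg1, Mylip and Nr1h3, mice of the PKM2ΔMAC group spread more widely than the genotypes differed. Of the 4 targets, 3 had a log2 fold change below 0, with a median of -0.078, and none of the 6 receptor and target genes was called by edgeR or DESeq2. At an unadjusted p under 0.05 there was 1, Lpcat3, against 9.83% of all genes tested. Abca1, which pumps cholesterol onto apolipoproteins, lies on chromosome 4 of GRCm38 from 53030787 to 53159895, minus strand, and had 417, 400.2 and 405 CPM in the PKM2FL/FL libraries and 423, 259.7 and 468 CPM in the PKM2ΔMAC libraries. PKM2ΔMAC replicate 2 was far below the rest, at 63.8% of the PKM2FL/FL mean, while replicates 1 and 3 were above each PKM2FL/FL library. The log2 fold change was -0.086 (adjusted p = 0.942, SE 0.23), and without replicate 2 it was 0.13 (SE 0.046, adjusted p = 0.230). Abcg1, which exports cholesterol to HDL, had 302, 226 and 247 CPM in the PKM2FL/FL libraries and 287, 175 and 276 CPM in the PKM2ΔMAC libraries. Again replicate 2 of PKM2ΔMAC was the lowest of the 6. Its log2 fold change was -0.071 (adjusted p = 0.953, SE 0.23), or 0.13 without that library. Mylip, a ubiquitin ligase that removes lipoprotein receptors, had 84.9, 75.4 and 79.8 CPM in the PKM2FL/FL libraries and 79.5, 60.1 and 78.5 CPM in the PKM2ΔMAC libraries, with a log2 fold change of -0.14 (adjusted p = 0.764, SE 0.11), or -0.017 without that library.

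Lpcat3, a phospholipid acyltransferase and LXR target, did not follow the other targets. It had 44.2, 44.5 and 44.5 CPM in the PKM2FL/FL libraries and 47.5, 47.7 and 48.6 CPM in the PKM2ΔMAC libraries. These libraries were tight and did not overlap, with replicate 2 of PKM2ΔMAC between the others, and the log2 fold change was 0.11 (adjusted p = 0.412, SE 0.040). In GENCODE M21, 10.2% of its exon bases overlap Emg1. Nr1h3, the LXR gene with the narrower tissue range, had 33.1, 26.2 and 30.8 CPM in the PKM2FL/FL libraries and 35.4, 22.5 and 36.3 CPM in the PKM2ΔMAC libraries. It had the pattern of Abca1, with the lowest value in PKM2ΔMAC replicate 2 and a log2 fold change of 0.065 (adjusted p = 0.952, SE 0.20), or 0.26 without that library. Nr1h2, the widely expressed receptor, had 109, 105 and 105 CPM in the PKM2FL/FL libraries and 104, 101 and 101 CPM in the PKM2ΔMAC libraries. Its libraries did not overlap and its 95% interval was -0.14 to 0.024, with a log2 fold change of -0.059 (adjusted p = 0.650, SE 0.036). On the log2 TPM scale it was 0.013, below the median gene at 0.063.

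The spread between PKM2ΔMAC libraries, as the SD of log2 CPM, was 0.45 for Abca1, 0.40 for Abcg1, 0.39 for Nr1h3 and 0.23 for Mylip, against 0.030, 0.21, 0.17 and 0.085 in PKM2FL/FL. Over the 4 targets, the mean log2 ratio to PKM2FL/FL was -0.38 in PKM2ΔMAC replicate 2 and 0.078 and 0.10 in replicates 1 and 3. The same library had the highest cell cycle mean, as given above, and 716 CPM of the lysosomal macrophage marker Cd68, against 972 and 991 CPM in the other PKM2ΔMAC libraries. Mertk was also lowest there, at 93.0 CPM. The other macrophage markers, Cd14, Csf1r, Adgre1, Itgam and Fcgr1, were highest there, at 476, 3755, 2236, 272 and 192 CPM. The part of these differences in the LXR values was not tested. Without this library the median of the 4 targets was 0.12 and edgeR called 0 of them.

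**Figure D4:**
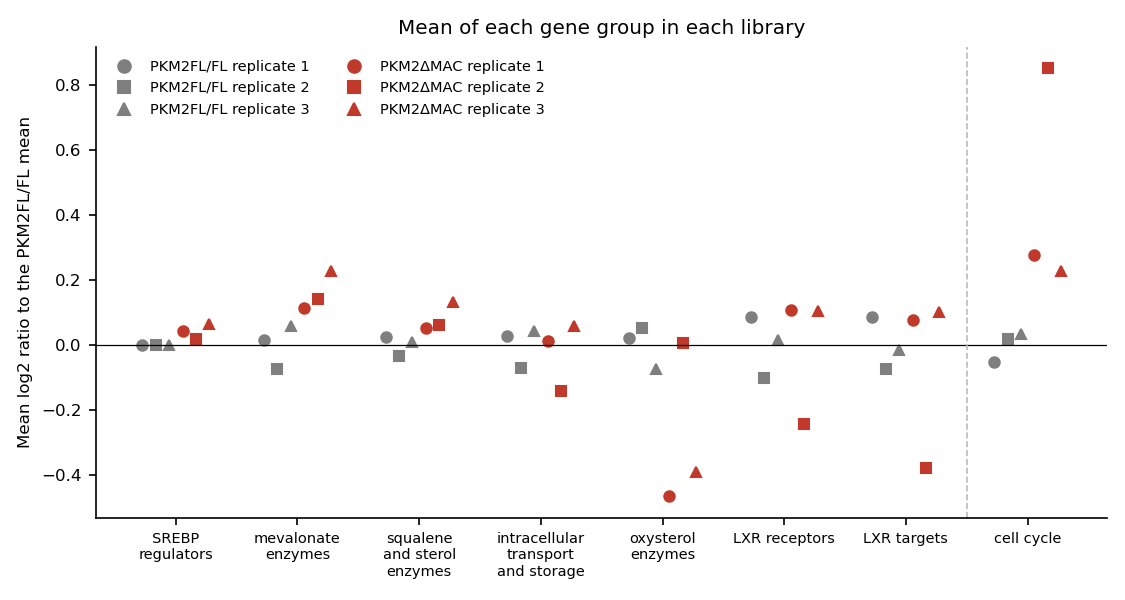
Mean log2 ratio to the PKM2FL/FL mean over the genes of each role group, and over 12 cell cycle genes, in each of the 6 libraries. PKM2ΔMAC replicate 2 (red squares) is lowest for LXR receptors, LXR targets and transport genes and highest for cell cycle genes. The red points lie above the grey ones for the SREBP regulators, both synthesis groups and the cell cycle genes, and overlap them in the other groups.

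Promoter windows of 29 of the 34 genes were matched by symbol in the RefSeq table (GRCm38.p6), with 38 windows in all. Those of Fdps, Fdft1, Sqle, Stard4 and Abcg1 were not analysed here. CCAAT, on either strand, was in a window of 23 of the 29 genes (79.3%), against 41.1% of the 27025 genes in the table. Counted by window, it was in 63.2% of the members' windows and 37.4% of all windows. Counted by gene, all 9 squalene and sterol enzymes with a window held it, as did 5 of 6 mevalonate enzymes and neither LXR receptor. CACCCCAC was in 2 of the 29 (6.90%), against 3.30% of all genes, and the same letters with AT before them were in 0, against 0.0999%. A strict LXR element, AGGTCA repeated after any 4 bases, was in 0 windows, against 0.0148% of all genes. A missing match says only that these letters are not in this window.

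Further genes of the pathway were taken from a list of 55 symbols outside the 34, of which Idi2 and Hsd3b7 were not analysed here and Pnpla3 was too low to test. Of the 52 tested, edgeR called 1, higher in PKM2ΔMAC (0.285% of all genes tested), and 0 lower (0.127% of all genes tested). DESeq2 called 2, both higher, against 0.91% of the genes it tested. At an unadjusted p under 0.05 there were 9, 7 higher and 2 lower, against 9.83% of all genes tested. The called gene was Msr1, a scavenger receptor that takes up modified lipoproteins, with 141, 126 and 135 CPM in the PKM2FL/FL libraries and 164, 177 and 186 CPM in the PKM2ΔMAC libraries. Each PKM2ΔMAC library was above each PKM2FL/FL library, and the log2 fold change was 0.39 (adjusted p = 0.0371, SE 0.059). When single libraries were left out, its adjusted p ranged from 0.0227 to 0.239, and was above 0.05 without PKM2FL/FL replicate 1, 2 or 3 or without PKM2ΔMAC replicate 3. In all, 8 of the 15 alternatives ended the call of Msr1, among them the replicate block and the TPM fits. Cd36, a receptor for fatty acids and oxidised lipoproteins, had 404, 342 and 395 CPM in the PKM2FL/FL libraries and 485, 466 and 551 CPM in the PKM2ΔMAC libraries. It also had no overlap, with 0.39 (adjusted p = 0.167, SE 0.083), and DESeq2 called it (adjusted p = 0.00216).

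Of the 13 SREBP-1 lipogenic targets tested, 10 had a log2 fold change above 0, and edgeR and DESeq2 called 0. At an unadjusted p under 0.05 there were 4, all higher, against 9.83% of all genes tested (5.24% higher and 4.6% lower). The largest difference was that of Fads2, a desaturase of long-chain fatty acids, with 29.0, 30.0 and 31.7 CPM in the PKM2FL/FL libraries and 34.5, 43.0 and 36.3 CPM in the PKM2ΔMAC libraries and a log2 fold change of 0.33 (adjusted p = 0.232, SE 0.085). Among further sterol genes it was Lbr, a sterol reductase of the nuclear envelope, with 0.16 (adjusted p = 0.706, SE 0.11). Among the genes of lysosomal and membrane transport, 8 of 9 had a value below 0, and the largest difference was that of Gramd1b, which moves cholesterol from the plasma membrane to the endoplasmic reticulum. It had 98.6, 103 and 96.1 CPM in the PKM2FL/FL libraries and 84.4, 69.9 and 90.0 CPM in the PKM2ΔMAC libraries, without overlap, and a log2 fold change of -0.28 (adjusted p = 0.378, SE 0.090). Rxra, the partner of LXR on DNA, had 175, 172 and 177 CPM in the PKM2FL/FL libraries and 164, 148 and 165 CPM in the PKM2ΔMAC libraries, also without overlap, and -0.13 (adjusted p = 0.419, SE 0.050). Rnf139, a ubiquitin ligase of the endoplasmic reticulum, had -0.11 (adjusted p = 0.519, SE 0.049). Plin2, a coat protein of lipid droplets, had -0.14 (adjusted p = 0.797, SE 0.13) and was lowest in PKM2ΔMAC replicate 2, at 339 CPM against 460.1 and 454 CPM in the others. Cyp46a1, an oxysterol enzyme of neurons, was below 1 CPM in all libraries, with 0.59 (adjusted p = 0.666, SE 0.38). Of the 3 oxysterol metabolism genes tested, all 3 had a log2 fold change above 0, against 49.9% of all genes tested. Without overlap there were 2, both higher, against 8.92%, and at an unadjusted p under 0.05 there was 1, against 9.83%. EdgeR and DESeq2 called 0 of them.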

How the data were processed

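RNA from 6 libraries was sequenced, and the deposited tables hold raw read counts per gene symbol and, as a second table, TPM values made by the authors. The submitters' processing notes name FastQC 0.12.1, Trim Galore 0.6.10, HISAT2 2.2.1, SAMtools 1.19.2, Subread 2.0.6 and mm10. The annotation and strand setting were not given in the sources used here. Columns were matched to mice by genotype and number, and 0 columns were left unmatched. In the present work, genes were filtered with filterByExpr, scaled by TMM and tested with edgeR's quasi-likelihood test (edgeR 4.0.16, R 4.3.3), with Benjamini-Hochberg adjustment over 16516 genes. The SE was taken as the size of the fitted log2 difference over the root of its F value. CPM are TMM-scaled, and positions and shared 50-base stretches came from GENCODE M21 (GRCm38). Named genes were all 34 members, and of the other pathway genes those called and the one with the largest difference in each sublist. The members and lists were chosen with earlier results of these data known. Alternatives were DESeq2 1.42.0, other scalings and filters, a replicate block, leaving out each library, and limma-trend (limma 3.58.1) on log2(TPM + 1) or log2(TPM + 0.1). The script was tested on simulated data. Each library comes from its own numbered mouse. A floor of 3 counts is 0.0546 to 0.0604 CPM, which covers counting error only. Fold changes on the log2(TPM + pseudocount) scale understate low genes.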

Additional observations from a re-analysis of the deposited data

How the results depend on the processing

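Of the 34 genes, 21 kept the sign of their log2 fold change under all 15 alternatives. Of 510 values compared, 29 had the opposite sign, 20 of them with a library left out and 9 in the TPM fits, and 4, all of Cyp27a1, passed the threshold. The TPM fits moved the median gene up by 0.063 to 0.067 (mean TPM of at least 1), and relative to that median 0 members had the opposite sign there. The number of members called was 1 in place of 0 with DESeq2, without a filter on low counts, and with the replicate block, and 0 to 1 when single libraries were left out. All genes called numbered 68, against 280 with DESeq2, 120 without a filter, 41, 34 and 36 in the TPM fits (pseudocount 1, pseudocount 0.1, and pseudocount 1 without filter), and 22 to 299 when single libraries were left out. Other pathway genes called numbered 1, against 2 with DESeq2, 0 in the TPM fits and 0 to 2 with libraries left out, while with the replicate block the 1 called was Cd36 (adjusted p = 0.0234) and not Msr1. Marker genes called numbered 1, against 8 with DESeq2, 2 without a filter, 2 with the replicate block and 1 to 6 with libraries left out. The log2 fold change of Pkm was -0.61 in each TPM fit (adjusted p = 0.112, 0.114 and 0.183) and -0.78 to -0.62 with libraries left out (adjusted p up to 0.0993 without a PKM2FL/FL library). The causes of these shifts were not tested.

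Median log2 fold changes of the SREBP regulators were 0.12, 0.12 and 0.12 in the TPM fits and 0.023 to 0.058 with libraries left out. Those of the squalene and sterol enzymes were 0.15, 0.15 and 0.15 in the TPM fits and 0.034 to 0.13 with libraries left out. Those of the mevalonate enzymes were 0.28 with a TPM pseudocount of 0.1 and 0.12 to 0.23 with libraries left out, and those of the transport and storage genes -0.16 to 0.049.

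In the TPM fits, values above 0 but below the median gene were found for Mvd (0.020, 0.021 and 0.020), Sc5d (0.013, 0.013 and 0.013) and Nr1h2 (0.013, 0.013 and 0.013). The sign turned in at least 1 case when single libraries were left out, with ranges of -0.021 to 0.024 for Srebf2, -0.025 to 0.040 for Insig2, -0.15 to 0.029 for Mvd, -0.018 to 0.075 for Msmo1, -0.038 to 0.090 for Hsd17b7, -0.026 to 0.034 for Ebp, -0.035 to 0.16 for Dhcr7, -0.16 to 0.049 for Soat1, -0.052 to 0.26 for Nr1h3, -0.26 to 0.13 for Abca1 and -0.20 to 0.13 for Abcg1. Values that kept their sign but moved by over 1.5 times ranged over 0.031 to 0.11 for Srebf1, 0.023 to 0.078 for Scap, 0.060 to 0.18 for Hmgcs1, 0.11 to 0.32 for Mvk, 0.0088 to 0.086 for Pmvk, 0.15 to 0.42 for Fdps, 0.027 to 0.13 for Cyp51, 0.086 to 0.25 for Tm7sf2, 0.073 to 0.15 for Nsdhl, -0.11 to -0.030 for Sc5d, -0.16 to -0.046 for Nceh1, -0.56 to -0.042 for Ch25h and -0.21 to -0.017 for Mylip. None of these genes was called in any of these fits.

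The labels tie the mouse numbers to no litter, batch or day. Deviations of same-numbered mice from the genotype means correlated at r = 0.080, 0.14 and 0.019 across 16516 genes, against -0.12 to 0.067 for mice with different numbers, and 5 of 6 libraries correlated best with their own number. The exception was PKM2ΔMAC replicate 3, with r = 0.067 to PKM2FL/FL replicate 1 and 0.019 to PKM2FL/FL replicate 3. Deviations were taken from the mean of the same libraries, so these correlations depend on each other and cannot decide on pairing. Whether the numbers mark a shared batch is undecided. With the replicate block, 82 genes were called, Cyp27a1 had an adjusted p of 0.0409 and Msr1 of 0.0552. With 3 mice per genotype, exact permutation tests could not go below p = 0.10, and the 95% intervals of 6 genes reached past 0.5 on the log2 scale.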
